A study of Mus musculus with 143 samples.

Results

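The comparison described here set the striatum of zQ175 mice given a non-targeting siRNA (NTC) against the striatum of zQ175 mice that were untreated. Its members are the 16 libraries labelled zQ175, NTC or untreated, in the treatment scheme written 6[4]10, out of 143 libraries in all. Each of the 2 groups held 8 mice, 4 female and 4 male. In this scheme the siRNA was given at 6 months of age and the striatum was taken at 10 months, 4 months later. zQ175 is a knock-in mouse line for Huntington's disease in which the mouse's own Htt gene carries an expanded CAG repeat, so both groups carried that allele. The whole series also held wild-type mice, an additional treatment (HTT-10150, an siRNA against Htt), and 2 further schemes, 2[4]6 (given at 2 months, taken at 6) and 2+6[8]10 (given at 2 and 6 months, taken at 10), which makes 18 groups. The sources used here give neither the dose, chemistry and route of the siRNA nor whether untreated mice had any injection. NTC against untreated therefore holds the siRNA and its delivery together, and these cannot be told apart.

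A small interfering RNA is a short RNA duplex. Argonaute proteins take up 1 of its strands and use it to find and cut a matching messenger RNA. A non-targeting siRNA goes through the same delivery and the same loading but is designed against no mouse transcript, so it is the usual control for a targeting siRNA. Foreign RNA can also be seen by sensors such as Tlr7 in the endosome and Ddx58 (RIG-I) in the cytosol, whose signalling turns on interferon-stimulated genes. Most neurons of the striatum are medium spiny neurons, which carry the dopamine receptors Drd1 or Drd2 and lose much of their characteristic expression in Huntington's disease.

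Polyadenylated RNA was sequenced from each striatum, 1 library per mouse. Total counts ran from 14.66 to 25.76 M (M stands for 1000000 counts) in the NTC group and from 14.06 to 27.89 M in the untreated group, so depth overlapped fully. The labelled tissue was borne out by its markers. Drd1 stood at 134 to 171 CPM (counts per 1000000 counts of the library) and Ppp1r1b, the dopamine-regulated phosphatase inhibitor DARPP-32, at 1271 to 1938 CPM in all 16 libraries. A pair of libraries stood apart from the others on the first principal component of all genes, which held 21.2% of the variance. NTC female 4 scored 41.8 and untreated male 2 scored -33.9, while the other 14 lay between -14.6 and 13.9. NTC female 4 held by far the most RNA of choroid plexus genes (below). Untreated male 2 had the steepest fall of level with transcript length, a slope of -0.111 log2 CPM per log2 length against -0.0476 to 0.029 in the other 15. Of 38 measures compared between the groups (depth, scaling, mitochondrial share, slopes, components and summed levels of 30 gene lists), none differed, with a smallest exact two-sided permutation p of 0.0333 and a smallest Benjamini-Hochberg adjusted p of 0.755.

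No gene was called higher or lower under NTC. Of 15757 genes tested with edgeR's quasi-likelihood test, 0 (0%) passed a Benjamini-Hochberg adjusted p of 0.05, and the smallest adjusted p was 0.62. DESeq2 and limma voom also called 0. At an unadjusted p under 0.05 edgeR had 1167 genes (7.41%), 555 of them higher (3.52%) and 612 lower (3.88%). DESeq2 had 1142 such genes and voom 1100. Genes at this unadjusted threshold are described below but are not calls.

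The intervals give the range of change left possible for each gene in the fit of the 48 libraries of this scheme. The spread behind them was estimated over all 48 libraries, not from these 16 mice alone. The median standard error of a log2 fold change was 0.0665, and the median half-width of its 95% interval was 0.134. For 14025 genes (89%) the 95% interval lay within a 1.5-fold change either way, and for 15360 (97.5%) within 2-fold. Among the 13288 genes with a mean over 1 on the log2 CPM scale, 12952 (97.5%) lay within 1.5-fold and 13183 (99.2%) within 2-fold. Only 67 genes had a log2 fold change beyond 1 in either direction.

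**Figure D1:**
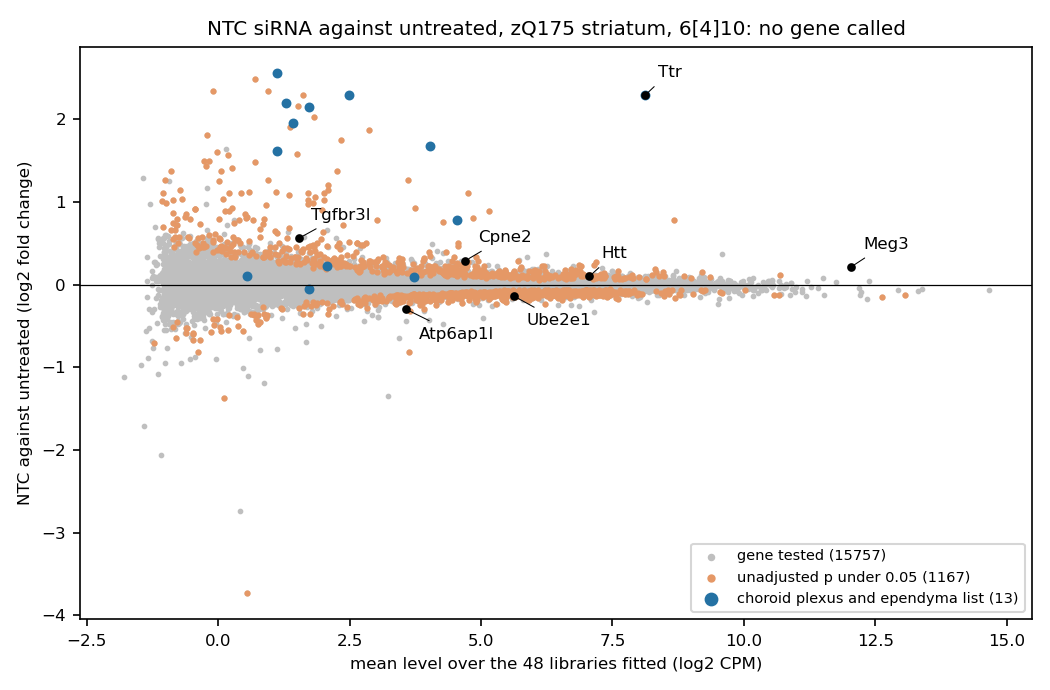
Each point is 1 of the 15757 genes, with its mean level in log2 CPM on the x axis and its log2 fold change, NTC against untreated, on the y axis. Orange points have an unadjusted p under 0.05 (1167 genes) and none passed adjustment. The choroid plexus and ependyma list, in blue, holds several of the highest values, with Ttr at 2.29.

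Htt (chromosome 5, 34761740 to 34912534 on GRCm38), the gene that the other siRNA of the study targets, is the first control. It stood at 111.3, 148.3, 139.9, 126.3, 128.4, 129.3, 130.1 and 132.7 CPM under NTC and at 115.9, 86.99, 130.1, 132.6, 129.2, 128.8, 135.2 and 116.9 CPM without treatment. The ranges overlapped in all but 2 NTC mice and the 1 low untreated library, male 2. The log2 fold change was 0.10 ± 0.08 (SE, n = 8 and 8), a difference of 7.36% with a 95% interval from -4.56% to 20.8%, and an exact two-sided permutation test gave p = 0.24, where 0.00016 is the smallest it can give. Without untreated male 2 the log2 fold change was 0.05. These Htt counts do not separate the normal from the expanded allele, and an entry named for a mutant form of Htt was too low to compare (below). In the zQ175 mice of this scheme given HTT-10150, set against these same untreated mice, the log2 fold change of Htt was -0.21 (unadjusted p = 0.016, adjusted p = 0.71 by edgeR), and 0 genes were called there too by edgeR and by DESeq2, with 6.53% of genes at an unadjusted p under 0.05 by edgeR.

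The genes with the smallest p on the higher side had small differences that did not pass adjustment (adjusted p = 0.62 for each, edgeR). Cpne2, a calcium-dependent membrane-binding copine, stood at 22.7 to 38.5 CPM under NTC (median 25.6) and at 18.5 to 23.6 CPM without treatment (median 22.5), and 6 of 8 NTC mice lay above the highest untreated mouse. Its log2 fold change was 0.29 ± 0.07. The highest value, 38.5 CPM, was NTC female 4. Without that library it was 0.18, a fold change that still had the same sign, at an unadjusted p of 0.0013.

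Meg3, a long noncoding RNA of neurons expressed from the maternal allele, was the most abundant of these genes, at 4386 to 5534 CPM under NTC (median 4589) against 3552 to 5030 CPM (median 4073). All 8 NTC mice lay above the untreated median, but only 2 above the highest untreated mouse. Rere, a nuclear receptor corepressor of the atrophin family, ran from 114.5 to 141.2 CPM under NTC and from 89.3 to 130 CPM without treatment, a log2 fold change of 0.16 ± 0.04. The lowest untreated value was again male 2, and without it the log2 fold change was 0.12. The largest log2 fold changes among the 10 were in genes of low level: Tgfbr3l at 0.56 ± 0.15 (means of 2.68 and 1.83 CPM), St6galnac2, a sialyltransferase, at 0.52 ± 0.15, Vasn, a membrane protein that binds TGF-beta, at 0.48 ± 0.14, Cdh4 (R-cadherin) at 0.47 ± 0.14 and Slc16a4, a monocarboxylate transporter family member, at 0.46 ± 0.14. Without NTC female 4 the log2 fold change of St6galnac2 was 0.32 and that of Slc16a4 was 0.28. Slc1a4, a neutral amino acid transporter, had a narrow spread, with means of 51.2 ± 1.76 and 46.7 ± 2.13 CPM (SD). The remaining gene of the 10 is a predicted gene.

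On the lower side, Atp6ap1l, a gene similar to an accessory subunit of the vacuolar proton pump, had the smallest p. It stood at 9 to 14.8 CPM under NTC (median 11.4) and at 12.7 to 18 CPM without treatment (median 14.2), a log2 fold change of -0.30 ± 0.07, and 5 of 8 NTC mice lay below the lowest untreated mouse. Ube2e1, a ubiquitin-conjugating enzyme, stood at 45.8, 46.4, 48, 48, 48.3, 48.7 and 49.3 CPM in 7 NTC mice, all below the lowest untreated value of 50.1 CPM, and at 55.3 CPM in NTC female 2. Ltv1, a factor for assembly of the small ribosomal subunit, also had 7 of 8 NTC mice below every untreated mouse, with means of 12 ± 0.647 and 14 ± 0.708 CPM (SD). The others were Prim2 (a DNA primase subunit) at -0.23 ± 0.07, Mrrf (a mitochondrial ribosome recycling factor) at -0.20 ± 0.06, Ss18l2 at -0.21 ± 0.06, Tmem263 at -0.15 ± 0.04, Mindy3 (a deubiquitinase) at -0.14 ± 0.04, Polr3k (an RNA polymerase III subunit) at -0.11 ± 0.03, and a predicted gene. In none of the 20 leading genes were the groups apart in every mouse. Over all 15757 genes that happened for 2 genes (0.0127%), Cd63-ps and Gm2004, both of very low level and both higher under NTC, and for 0 genes on the lower side.

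**Figure D2:**
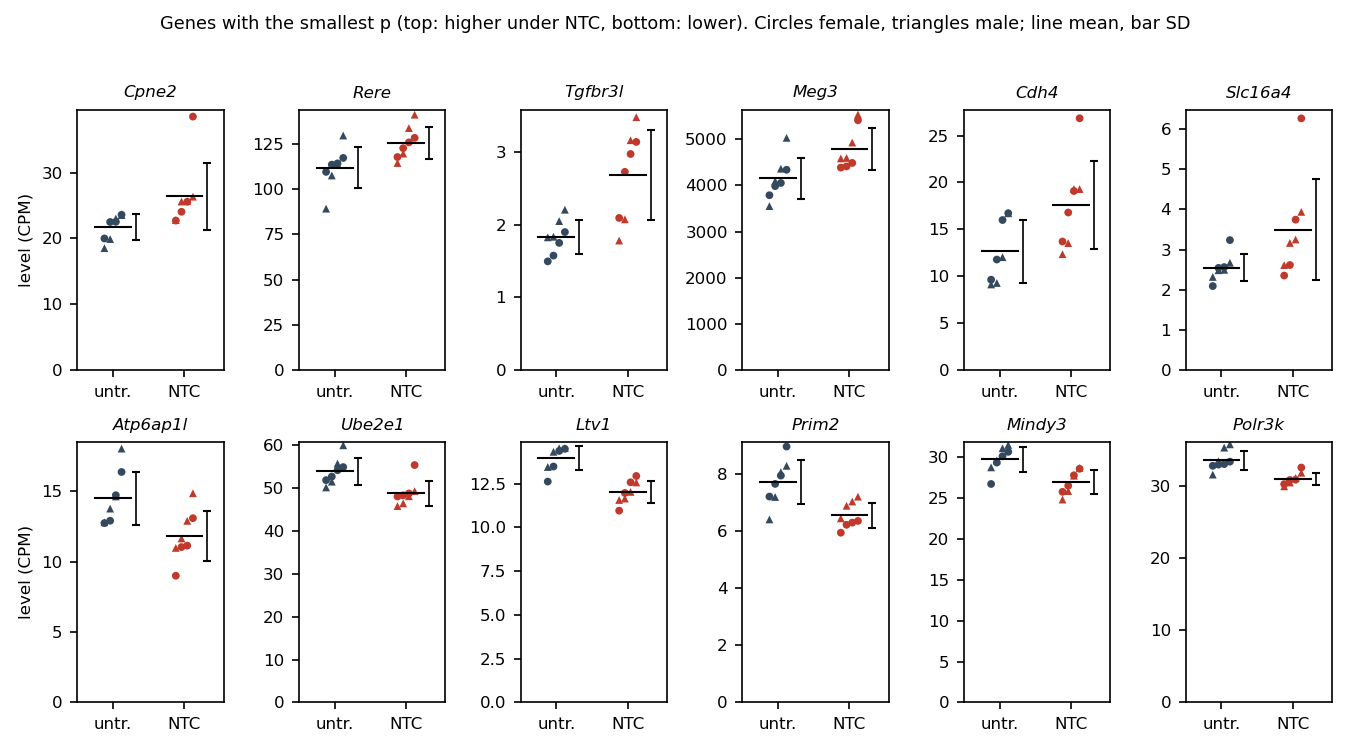
Levels in CPM (y axis, from 0) of the leading named genes in each untreated and each NTC mouse, with the mean as a line and the SD as a bar (n = 8 per group). The top row holds genes higher under NTC and the bottom row genes lower. In Ltv1 and Ube2e1, 7 of 8 NTC mice lie below all untreated mice, and in Cpne2 NTC female 4 lies far above the rest at 38.5 CPM.

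The leading genes were set beside the same contrast in other mice, which share no library with these 16. In wild-type mice of the same scheme, 6 of the 20 had the same sign, against 41.6% of all genes. The values there were near 0: Cpne2 0.06 ± 0.07, Rere -0.04 ± 0.04, Meg3 -0.02 ± 0.06, Atp6ap1l 0.03 ± 0.07 and Ube2e1 0.01 ± 0.04. In zQ175 mice of 2[4]6, 17 of the 20 had the same sign, against 59.4% of all genes, with Ube2e1 at -0.12 ± 0.05, Ltv1 at -0.12 ± 0.06 and Meg3 at 0.15 ± 0.11. In zQ175 mice of 2+6[8]10 it was 12 of 20, against 54%, with Atp6ap1l at -0.15 ± 0.07 and Ube2e1 at 0.05 ± 0.04.

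No difference between these effects passed a test. The NTC effect in zQ175 minus that in wild type was called for 0 of 15757 genes (edgeR and DESeq2), with 1104 at an unadjusted p under 0.05 by edgeR (7.01%). Atp6ap1l at -0.33 ± 0.10, Mindy3 at -0.19 ± 0.06 and Rere at 0.20 ± 0.06 were among these. The effect in 6[4]10 minus that in 2[4]6, within zQ175, had 0 calls of 16295 (433 unadjusted, 2.66%), and minus that in 2+6[8]10 also 0 (681 unadjusted, 4.18%), by edgeR, and 0 by DESeq2 in both. NTC against untreated had 0 calls as well in wild type of this scheme (394 unadjusted, 2.5%), in zQ175 of 2[4]6 (785, 4.99%) and in zQ175 of 2+6[8]10 (473, 3.05%), with edgeR and with DESeq2. In wild type of 2[4]6 edgeR also called 0 genes (2.01% unadjusted). Wild type of 2+6[8]10 was the 1 pair of the 6 with calls by edgeR, 28 of 15506 genes (0.181%), 11 of them higher and 17 lower, with 11.4% at an unadjusted p under 0.05. No gene was called for a difference in NTC effect between female and male zQ175 mice of this scheme (0 by both tools, 718 unadjusted by edgeR, 4.56%). That difference rests on 4 mice of each sex in each group. Among the leading genes Mrrf had the smallest p for that difference, with a log2 fold change of -0.07 in females and -0.33 in males (unadjusted p = 0.025).

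Genes that sense foreign RNA and genes that interferon turns on are the usual readout of an innate response to an siRNA. None of the 19 nucleic acid sensors measured was called, 0 passed even the unadjusted threshold, and their median log2 fold change was 0.02. Tlr7 stood at 1.36 to 3.61 CPM under NTC and 1.68 to 3.52 CPM without treatment. Ddx58 was at 0.15 ± 0.09 and Oas2, an antiviral oligoadenylate synthetase, at 0.44 ± 0.25. Of 26 interferon-response genes, 21 lay above 0, with a median of 0.07 beside -0.0024 for all genes tested, and again 0 had an unadjusted p under 0.05. Ifit1 ran from 1.73 to 5.29 CPM under NTC and from 2.44 to 4.5 CPM without treatment, and Isg15 from 0.886 to 3.4 CPM and from 0.926 to 2.18 CPM. The highest value of both genes came from 1 mouse, NTC female 2, whose summed level of the list was 223 CPM, beside 155 to 180 CPM in the other 7 NTC mice and 143 to 194 CPM in untreated mice. Without it the list's median was 0.02 and 12 of 26 genes lay below 0. Without untreated male 2 in its place, the median was 0.15 and 5 genes passed the unadjusted threshold. The same list had medians of -0.25 in wild type of this scheme (2 of 26 above 0), 0.32 in zQ175 of 2[4]6 and -0.03 in zQ175 of 2+6[8]10. In the present mice its median was 0.23 in females and -0.07 in males, a difference that was not tested for the list.

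Antigen presentation genes had a median of 0.18, with 9 of 11 above 0. That median was 0.11 without NTC female 4, with 1 gene past the unadjusted threshold. Leaving out untreated male 2 instead gave a median of 0.22, with 0 genes below 0 and 5 past that threshold. In wild type of this scheme the list had a median of -0.17, with 2 of 11 above 0. Its median was 0.21 in zQ175 of 2[4]6 (11 above 0) and 0.14 in zQ175 of 2+6[8]10 (10 above 0). With all 16 mice Nlrc5, the activator of class I genes (0.49 ± 0.19), and Tap2, a peptide transporter (0.18 ± 0.08), passed the unadjusted threshold. Cytokine and NF-kB target genes were centred at -0.02, with Nfkb1 at 0.12 ± 0.05. The RNA interference machinery itself was flat: for all 18 members measured the 95% interval lay within 1.5-fold. Ago2, the slicing Argonaute, had a mean of 116 ± 14.1 CPM under NTC and 108 ± 15 CPM without treatment (SD). Dicer1 had 66.1 ± 2.87 and 64.1 ± 6.86 CPM. Eri1, an exonuclease that degrades small RNA duplexes, was at -0.18 ± 0.07 and Tnrc6a, a partner of Argonaute, at 0.08 ± 0.04, each past the unadjusted threshold only. Endosome and lysosome genes, the route by which oligonucleotides enter cells, had a median of 0, with Sidt2, a lysosomal membrane protein for RNA transport, at 0.09 ± 0.03.

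Glial genes gave no calls either. Aif1, the microglial marker Iba1, stood at 4.02 ± 0.401 CPM under NTC and 4.14 ± 0.808 CPM without treatment (SD). Gfap, the astrocyte filament that marks gliosis, stood at 186 ± 61.5 and 183 ± 60.5 CPM, a log2 fold change of 0.01. Its 95% interval in the fit of 48 libraries ran from -0.35 to 0.38, so the change of Gfap is fixed only to within that interval. Serpina3n, a marker of reactive astrocytes, was at 0.03 ± 0.14. Cst7, a marker of activated microglia, was at 0.01 ± 0.30 and low, at 0.332 to 2.67 CPM. C4b of the complement system was at 0.15 ± 0.10, and at 0.23 without untreated male 2. The complement proteases C1ra at 0.73 ± 0.33 and C1s1 at 0.54 ± 0.26 passed the unadjusted threshold, and the highest C1ra value, 2.4 CPM, came from NTC female 4. Of 14 homeostatic microglial genes 11 lay below 0, and Fcrls, a microglial Fc receptor-like gene, was at -0.21 ± 0.08 (15.3 to 22.1 CPM against 17.9 to 27.8 CPM). The median of that list was -0.04, and without NTC female 4 it was 0, with 8 of 14 below 0 and 0 past the unadjusted threshold. All 15 oligodendrocyte genes lay below 0, with a median of -0.12. Mbp, a myelin protein, ran from 2689 to 4887 CPM and from 3505 to 5844 CPM. The lowest Mbp value was NTC female 4 and the highest was untreated male 2. Without those 2 libraries the median of the list was -0.02 and 10 of 15 lay below 0.

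Neuronal genes stayed within narrow bounds. For all 32 medium spiny neuron genes the 95% interval lay within 1.5-fold. Their median was -0.05, and 24 of 32 were below 0, with 0 past the unadjusted threshold. Without NTC female 4 the median was -0.02, with 21 below 0. Without untreated male 4 in its place it was -0.08, with 28 below 0 and 2 lower genes past that threshold. Drd1 had a median of 146.7 CPM under NTC and 159.1 CPM without treatment, with 6 of 8 NTC mice below the lowest untreated mouse and 1 above the highest (log2 fold change -0.10 ± 0.09). Drd2 had means of 109.9 ± 14.1 and 114.6 ± 10 CPM (SD). Penk, the enkephalin precursor of the indirect pathway, was at -0.09 ± 0.08. Tac1, the substance P precursor of the direct pathway, was at -0.11 ± 0.07, and Pde10a, the striatal phosphodiesterase, at -0.07 ± 0.09. Genes that neuronal activity turns on within minutes varied more from mouse to mouse. Of 21 immediate early genes 20 lay below 0, with a median of -0.17, but 0 passed the unadjusted threshold. By sex the median was -0.01 in females and -0.44 in males, a difference that was not tested for the list. Fos ran from 5.69 to 26.8 CPM under NTC and from 12.61 to 36.58 CPM without treatment (-0.47 ± 0.39), and Egr2 was at -0.64 ± 0.41. Without NTC male 1 the median of the list was -0.11. The library names begin with a number that the labels do not explain, and 5 of these numbers occur once in each group. The summed level of the list was lower in the NTC mouse than in the untreated mouse at all 5. With that number as a block in the edgeR fit the median was -0.43, 15 of the 21 genes had an unadjusted p under 0.05 and 0 were called, with Fos at -1.15 and Egr2 at -1.16 (adjusted p = 0.55 for each). The number did not pair the mice over all genes, since the correlation of their deviations ran from -0.28 to 0.35 over the 5. The same list had a median of 0.18 in zQ175 of 2[4]6 and -0.24 in zQ175 of 2+6[8]10. In wild type of this scheme its median was -0.08, with 3 of 21 above 0. With HTT-10150 set against these same untreated zQ175 mice it was -0.20.

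The genes by which zQ175 differs from wild type were compared as well. They were chosen in untreated mice of the other 2 schemes, where they were called in both, so none of the 16 libraries took part in the choice. The 1538 genes higher in zQ175 had a median log2 fold change of -0.0011 under NTC (764 above 0 and 774 below), and the 1937 of 1938 lower genes that were tested here had a median of -0.011 (838 above and 1099 below). Of these genes 0 were called by edgeR. At an unadjusted p under 0.05 the first set held 48 higher (3.12%) and 57 lower genes (3.71%), and the second 47 (2.43%) and 72 (3.72%), beside 3.52% and 3.88% of all genes.

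**Figure D3:**
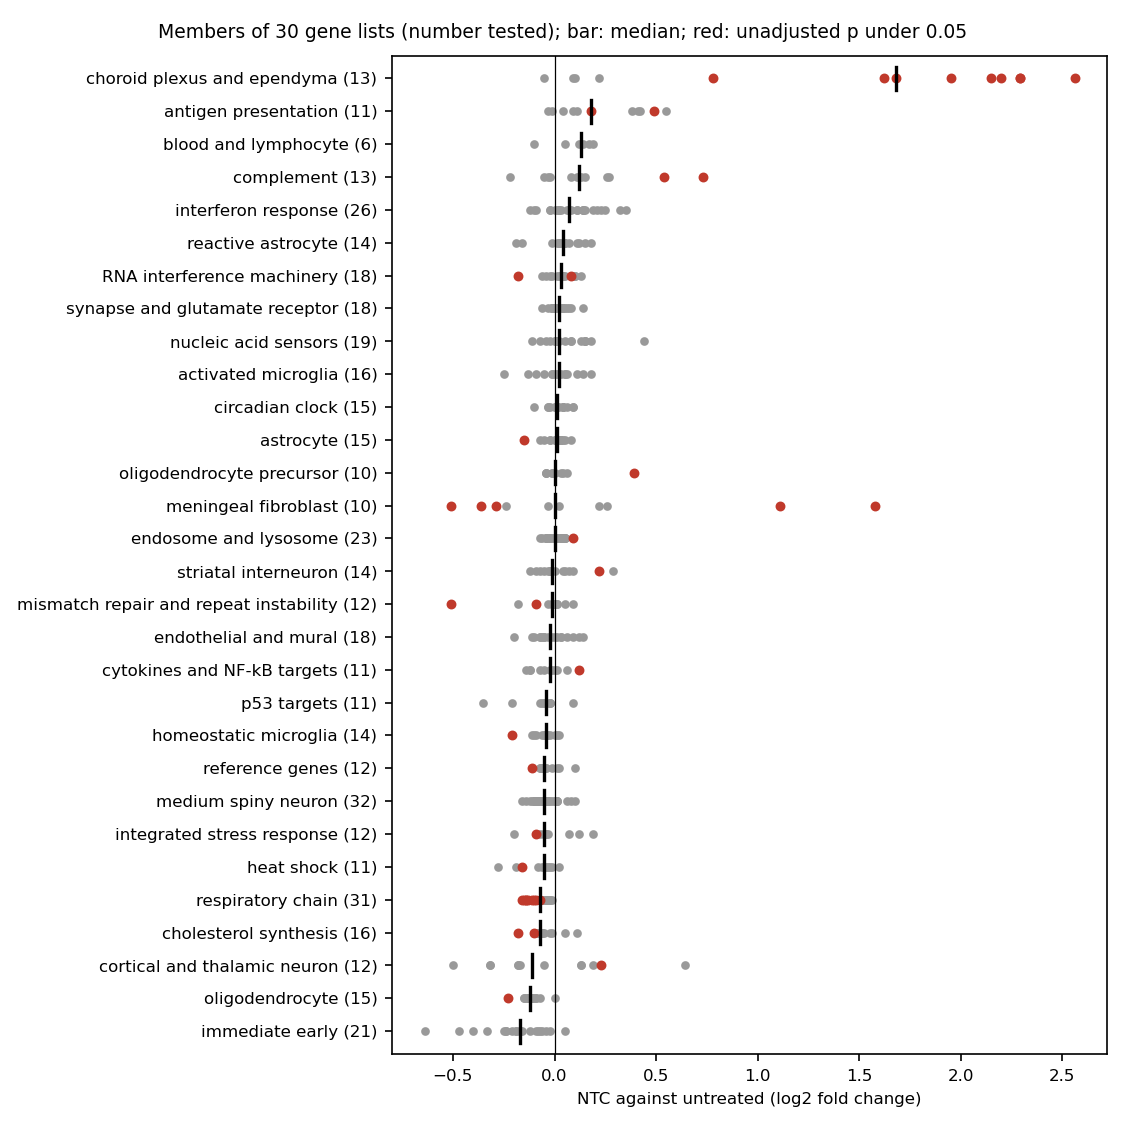
Log2 fold change, NTC against untreated (x axis), of each measured member of 30 gene lists (y axis, with the number tested). The black bar is the median of the list and red points have an unadjusted p under 0.05. Only the choroid plexus and ependyma list has a median beyond 0.2 in either direction, at 1.68, and the respiratory chain list lies wholly below 0.

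The highest log2 fold change of all 15757 genes, 2.56, was that of Kcne2, a gene of the choroid plexus, a tissue next to the striatum, and the list it belongs to was carried by a few mice. Of 13 choroid plexus and ependyma genes 12 lay above 0, with a median log2 fold change of 1.68, and 9 passed the unadjusted threshold, but 0 were called. Ttr, the transthyretin that the choroid plexus secretes, stood at 4985 CPM in NTC female 4, 836 CPM in NTC female 3 and 732 CPM in NTC male 2, and at 21.7 to 93.1 CPM in the other 5 NTC mice. In untreated mice it stood at 623 CPM in female 2, 203 CPM in female 1 and 15.7 to 123.8 CPM in the other 6. The high mice were in both groups, and the medians, 71.6 CPM under NTC and 92.9 CPM without treatment, were in the opposite order to the means, 847.5 and 149.1 CPM. Kcne2, which encodes a potassium channel subunit, and Folr1, a folate receptor, also of the choroid plexus, reached 34.4 and 37.6 CPM in NTC female 4 and medians of 0.65 and 1.01 CPM under NTC. Igf2, a growth factor of the meninges and choroid plexus, stood at 219 CPM in that mouse and at 10.5 to 48.4 CPM in the other 7. Without NTC female 4 the median of the list was 0.50 and 0 of its genes passed the unadjusted threshold. By limma voom the median was 1.01, and with the number of the library name as a block 0.21, again with 0 past that threshold. NTC female 4 shares its number with no other library of the scheme, so it adds nothing to the block estimate. The number of genes at an unadjusted p under 0.05 in the whole comparison was 837 without NTC female 4. Without untreated male 2 it was 764, without both 596, and without NTC male 2, another mouse with high Ttr, 728. The calls stayed at 0 each time. In bulk tissue, more cells of a type and more RNA per cell cannot be told apart.

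Cortical tissue also varied by mouse in both groups. Slc17a7, the glutamate transporter of cortical neurons, which striatal neurons hardly express, was highest among NTC mice in male 4, followed by female 1 at 127 CPM, and stood at 317 CPM in untreated male 4 and 106.8 CPM in untreated male 2 and at 7.64 to 54.6 CPM in the other 12 mice. Its log2 fold change was -0.18 ± 0.74.

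**Figure D4:**
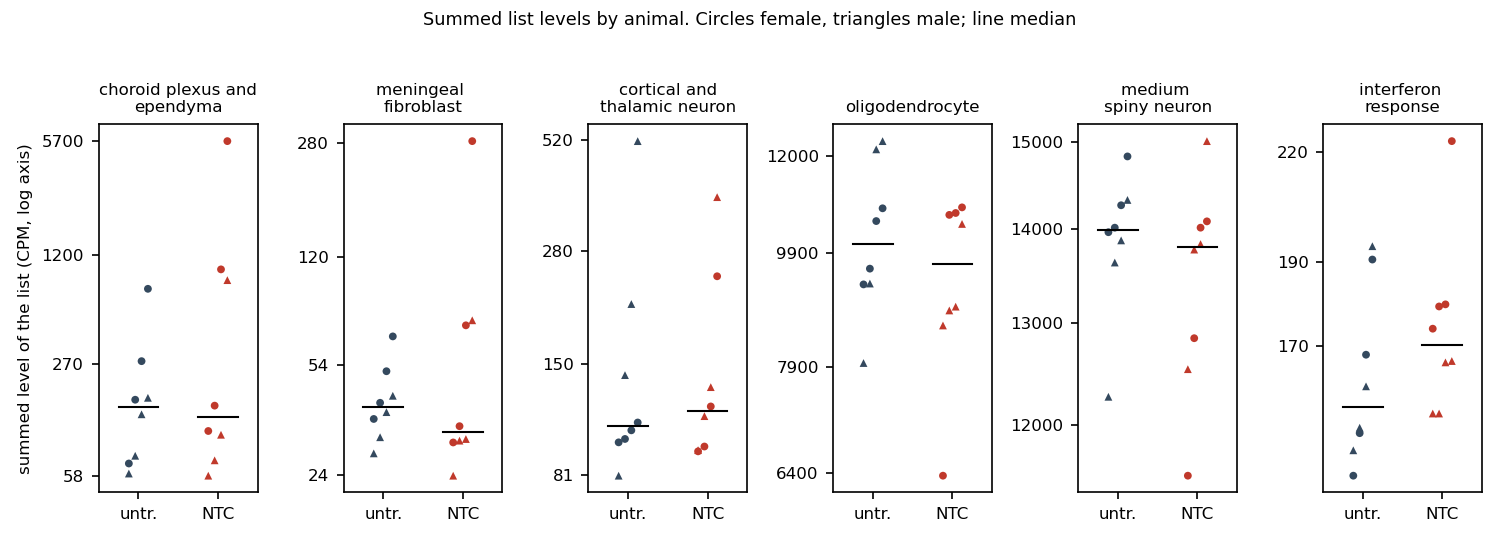
Summed level in CPM (log y axis, own range for each list) of 6 gene lists in each untreated and each NTC mouse, with the group median as a line. NTC female 4 is the highest mouse for the choroid plexus list, at 5655 CPM, and the lowest for oligodendrocyte genes, at 6371 CPM, while the groups overlap in every panel.

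Genes of the mitochondrial respiratory chain lay slightly below 0 together. All 31 measured had a log2 fold change below 0, from -0.16 to -0.01 with a median of -0.07, and 9 passed the unadjusted threshold (beside 3.88% lower for all genes), with 0 called. Cox7a2, a cytochrome oxidase subunit, stood at 55.1 to 70.6 CPM under NTC and 62.4 to 86.2 CPM without treatment (-0.16 ± 0.05). Ndufa4 was at -0.13 ± 0.04 and Atp5c1, a subunit of ATP synthase, at -0.10 ± 0.04. The highest untreated values of Cox7a2, Ndufa4 and Atp5c1 came from untreated male 2, the library with the steep length slope. Without it the median was -0.03, 25 of 31 lay below 0 and 3 passed the unadjusted threshold. With each library's length and GC slopes as covariates the median was -0.01 and 18 of 31 lay below 0. The cause of the shift was not tested. In wild type of this scheme the same genes had a median of 0.04, with 29 of 31 above 0. Heat shock genes had 10 of 11 below 0, of which Hspe1, a mitochondrial chaperonin, was at -0.16 ± 0.05. Their median was -0.05. It was -0.01 without untreated male 3, with 7 below 0, and -0.07 without NTC male 3, with 11 below 0. Cholesterol synthesis genes had 14 of 16 below 0, with Msmo1, a sterol oxidase, at -0.18 ± 0.06. Their median was -0.07, and from -0.09 to -0.05 leaving out 1 library. Reference genes that every cell uses, 12 in number, had a median of -0.05, which was -0.01 without untreated male 2 and 0.01 with the length and GC slopes as covariates. The remaining lists (astrocyte, reactive astrocyte, activated microglia, interneuron, synapse, oligodendrocyte precursor, vascular, blood, integrated stress response, p53, circadian clock and mismatch repair genes) had medians between -0.05 and 0.13, with 0 genes called.

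The other 5 pairs of NTC and untreated groups in the series allow a check on genes chosen without these mice. This check was added after the data had been seen. Averaged over those 5 pairs, in a fit of 127 libraries without the 16 described here, edgeR called 40 of 16239 genes (0.246%), all 40 lower under NTC, and DESeq2 called 43, among them all 40. In the present mice 30 of these 40 lay below 0 and 10 above, where 8034 of all 15757 genes lay below. The median log2 fold change of the 40 was -0.06 here and -0.19 in the other pairs. At an unadjusted p under 0.05, 6 of the 40 were lower and 1 was higher. The median here was -0.14 with length and GC slopes as covariates, with 36 below 0, and -0.12 without NTC female 4 and untreated male 2. The 40 rest in part on wild type of 2+6[8]10: averaged over the other 4 pairs without it, edgeR called 13 genes, all lower and all among the 40, of which 9 lay below 0 in the present mice and 4 above.

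The examples that follow were chosen after their values were seen, and no list stands behind them. The meningeal fibroblast list had a median of 0 in the present mice, with 5 genes above 0 and 5 below, and -0.20 without NTC female 4. Mrc1, the mannose receptor that marks perivascular macrophages, was at -0.95 ± 0.10 on average in the other pairs, between -0.54 and -1.81 in each of them, and at -0.73 without wild type of 2+6[8]10, where it was still called. In the present mice it was at -0.27 with a 95% interval from -0.78 to 0.24, from 0.295 to 1.18 CPM under NTC and from 0.296 to 1.27 CPM without treatment. F13a1, a coagulation factor subunit also made by such macrophages, was at -0.57 in the others and -0.47 here (interval -1.19 to 0.24). Dcn, the fibroblast proteoglycan decorin, was at -0.34 and -0.36 (interval -0.67 to -0.04), and Col3a1, a fibrillar collagen, at -0.40 and -0.51. Without wild type of 2+6[8]10 the average in the others was -0.17 for Col3a1, -0.26 for Dcn and -0.51 for F13a1, none of them called. Slc6a13, a GABA transporter of the meninges, was at -0.30 in the others and -0.29 here, and was not called without wild type of 2+6[8]10. Within the NTC group the choroid plexus library, NTC female 4, had the highest Dcn, at 6.05 CPM.

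Microglial Fcrls was at -0.18 in the other pairs and -0.21 here. Ado, a thiol dioxygenase and oxygen sensor, had the same value in both, -0.14. It is well expressed, at 71.1 to 92.1 CPM under NTC and 78.7 to 106 CPM without treatment, and 3 of 8 NTC mice lay below the lowest untreated mouse (unadjusted p = 0.0091). Slain1, a microtubule-binding protein, was at -0.15 and -0.18. Others did not go the same way. The largest fall of the 40 in the other pairs, -1.5, was that of 7630403G23Rik, a gene of low level. It was at 0.32 here (interval -0.43 to 1.06). Stab1, a scavenger receptor of macrophages, was at -0.20 and 0.07, and Abca8a at -0.18 and 0.01. Col15a1, a basement membrane collagen, was at -0.26 and 0.22, and the predicted gene Gm5067 at -0.51 and 0.54. Without wild type of 2+6[8]10, Fcrls, Slain1 and Gm5067 were not called in the others. Ado, 7630403G23Rik, Stab1, Abca8a and Col15a1 still were. With all 6 pairs averaged in a fit of 143 libraries, 32 of 16295 genes were called (0.196%), all lower.

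**Figure D5:**
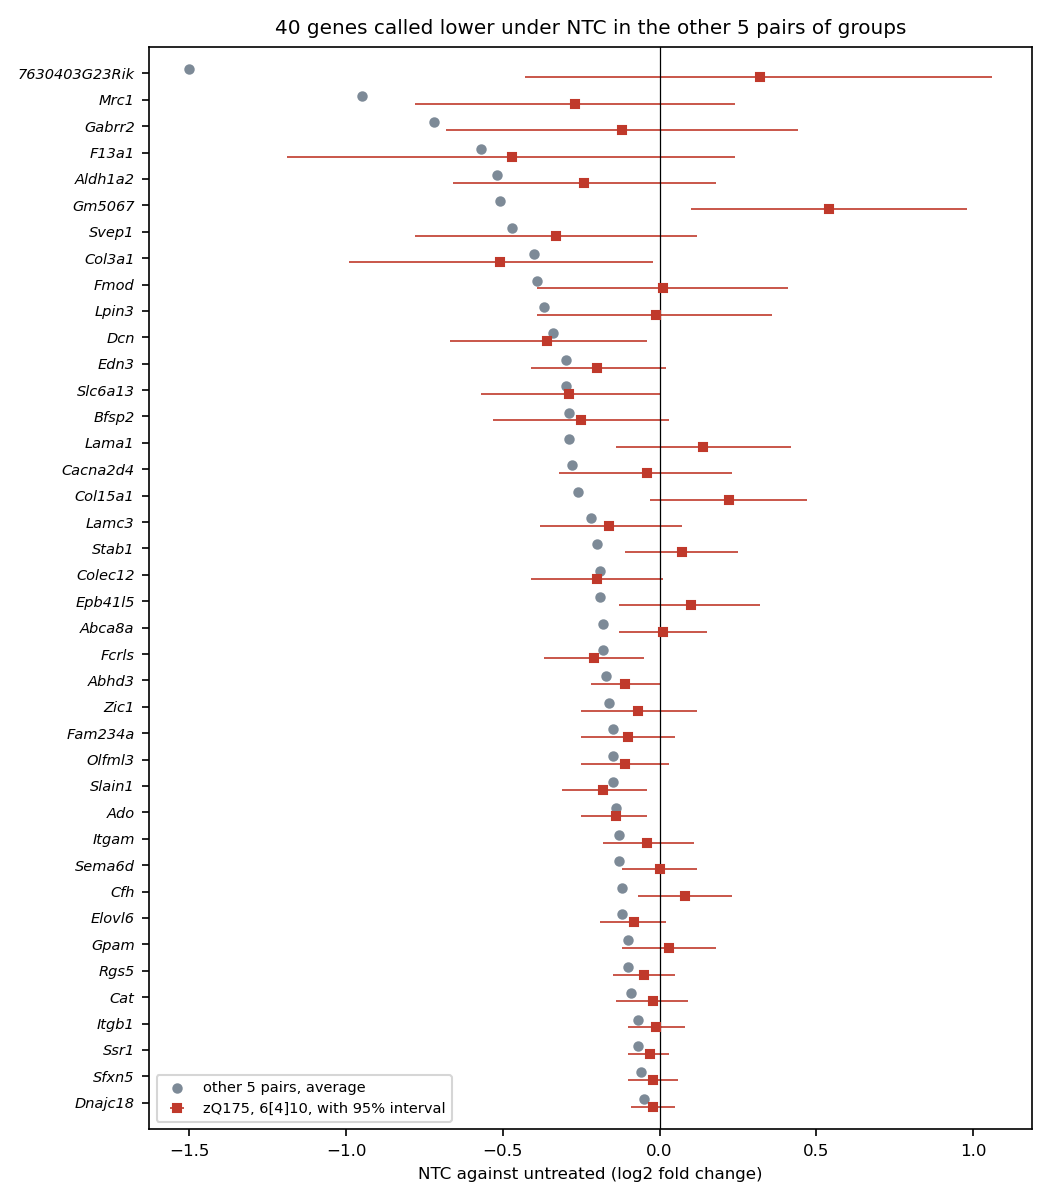
Log2 fold change, NTC against untreated (x axis), of the 40 genes called in the average of the other 5 pairs of groups (grey points), beside zQ175 mice of 6[4]10 (red squares, with 95% intervals, n = 8 and 8). Of the red squares 30 lie below 0 and 10 above, and most intervals include 0.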

How the data were processed

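RNA-seq libraries of the striatum, 1 per mouse, were compared. The authors counted reads with RSEM against GRCm38, per the submitters' processing notes, and deposited expected counts per gene. For the aligner, annotation and versions: not given in the sources used here. Another table of the series was not used. Of 41135 entries, 7 named no mouse gene (5.91e-06% of counts) and were left out. Expected counts were rounded to whole numbers (78.4% of nonzero values were whole already). Total counts per library ran from 12.55 to 29.19 M (M stands for 1000000 counts). No libraries were identical.

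Groups came from the labels, which do not say more of how the animals were allotted. The fit was edgeR 4.0.16 (R 4.3.3), quasi-likelihood with robust dispersion, over the 48 libraries (6 groups) of the 6[4]10 scheme with sex as a term, filterByExpr and TMM. A call needed an adjusted p (Benjamini-Hochberg, across every gene of the fit) under 0.05. Levels are TMM-scaled CPM. Standard errors are the log2 fold change over the root of F. DESeq2 1.42.0 and limma 3.58.1 (voom) were alternatives. Contrasts between schemes came from a fit of 143 libraries with sex within scheme. Library measures and Htt were compared by exact two-sided permutation. The edgeR step was tested on simulated counts. Gene positions are from GENCODE M21 on GRCm38.

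The 30 gene lists (487 symbols) and the members were chosen with earlier results of these data known. Genes named are Htt, the 10 with the smallest p in each direction with mean log2 CPM over 1 (predicted genes counted, not named), up to 3 of smallest p per list, defining markers, 20 fixed genes (Ifit1, Isg15, Irf7, Tlr7, Ago2, Dicer1, Gfap, Serpina3n, Aif1, Cst7, C4b, Drd1, Drd2, Penk, Tac1, Pde10a, Ppp1r1b, Fos, Mbp, Cldn5) and, chosen after their values were seen, genes called in the other 5 pairs and the 2 whose groups do not overlap.

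Same-numbered mice did not vary together: over 8 pairs within sex the correlation of their deviations ran from -0.28 to 0.51, with 2 pairs over 0.1.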

Additional observations from a re-analysis of the deposited data

Results flagged for a closer look

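The levels of 41 named genes and 38 library measures, 79 quantities in all, were examined in the NTC and in the untreated group separately. In 27 instances 1 library of the 8 lay apart from the other 7 by more than Dixon's 95% limit. Chance alone does this in about 1 of 20 groups. No cause of these values was tested.

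Untreated male 2 accounted for the most. It was the lowest untreated mouse for Htt (87 CPM, next 116), Dicer1 (48.1 CPM, next 64.2) and the length slope (-0.111, next -0.0187). It was the highest for Penk (645 CPM), Tac1 (256 CPM), Aif1 (5.92 CPM), and the summed endosome and lysosome (5217 CPM), activated microglia (2924 CPM) and reference gene (10370 CPM) lists.

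NTC female 4 was the highest NTC mouse for Cpne2 (38.5 CPM, next 26.3) and the summed meningeal list (283 CPM, next 75.3). It was the lowest for C4b (69.5 CPM), Mbp (2689 CPM) and the summed oligodendrocyte (6371 CPM), homeostatic microglia (433 CPM) and cytokine (182 CPM) lists.

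NTC female 2 was the highest NTC mouse for Isg15 (3.4 CPM, next 1.49), Ube2e1 (55.3 CPM) and the summed interferon list (223 CPM, next 180). Untreated female 2 was the highest untreated mouse for Ifit1 (4.5 CPM). Untreated male 4 was the lowest for Drd2 (92.3 CPM, next 112) and the summed medium spiny neuron list (12270 CPM), untreated male 3 for Ss18l2 (10.3 CPM) and the blood list (143.5 CPM), and untreated female 1 for the p53 list (282 CPM). NTC male 3 was the highest for the integrated stress response list (662 CPM) and NTC male 4 for the mismatch repair list (221 CPM).

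The count table also holds an entry named for a mutant form of Htt, which no comparison used. It summed to 13.08 expected counts over the 8 NTC libraries (above 0 in 6) and to 16.2 over the 8 untreated libraries (above 0 in 7), and was above 0 in 1 of 71 wild-type libraries, at 0.13 counts. At 0 to 4.51 counts per library it cannot show a difference between the groups.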

How the results depend on the processing

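The count of called genes was 0 under every alternative run: DESeq2, no filter on low counts, RLE scaling, a fit of the 16 libraries alone, a fit of all 143, no sex term, the replicate number as a block, the first number of the library name as a block, length and GC slopes, limma voom, and leaving out each of the 16 libraries. With the replicate block edgeR called 0 genes, with 1227 at an unadjusted p under 0.05. The replicate numbers did not pair the mice. The unadjusted count ran from 440 (length and GC slopes) to 1650 (no filter) over these settings and from 728 to 1704 over the libraries left out. It was 588 with only the 16 libraries fitted. Chosen after seeing the data were log2 Ttr as a covariate (0 called, 741 unadjusted) and leaving out NTC female 4 with untreated male 2 (0 called, 596 unadjusted). Htt was never called, with a log2 fold change of 0 (length and GC slopes) to 0.11 by setting and 0.05 to 0.13 leaving out 1 library.

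For 41 named genes under 14 settings each, 548 values kept their sign and 26 changed sign, all of them uncalled and close to 0. None of the 41 genes was called in the main fit, so a value could cross the threshold only by becoming called, and none did. None of the 20 leading genes changed sign. They were chosen by their p in these same libraries, which most settings fit again, so this is no separate check of them. With length and GC slopes as covariates Aif1 was at 0.11, Dicer1 at -0.03, Tac1 at 0.01 and Tlr7 at 0.09. With the library name's number as a block Cldn5 was at 0.04, Ifit1 at -0.02 and Tlr7 at 0, by voom Ifit1 was at -0.02, without the sex term Cst7 was at 0 and with Ttr as a covariate Cldn5 was at 0. Without NTC female 4 and untreated male 2, Aif1 was at 0.07, Cldn5 at 0.06, Dicer1 at -0.01, Mbp at 0.01, Ppp1r1b at 0.05 and Tlr7 at 0.07. Leaving out 1 library at a time, Aif1 ran from -0.08 to 0.05, Cldn5 from -0.08 to 0.04, Cst7 from -0.17 to 0.33, Dicer1 from -0.01 to 0.06, Gfap from -0.08 to 0.16, Ifit1 from -0.11 to 0.13, Isg15 from -0.16 to 0.17, Ppp1r1b from -0.07 to 0.01, Serpina3n from -0.03 to 0.12 and Tlr7 from -0.12 to 0.07. The cause of these sign changes was not tested. Intervals were narrower for genes of higher level, and what sequencing depth adds to this was not tested: of the genes with a mean log2 CPM over 1, 97.5% had an interval within 1.5-fold, against 89% of all.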
